A study of Homo sapiens with 6 samples.

Results

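The genes described here are 38 genes of the NRF2, glutathione and iron antioxidant system in MDA-MB-231, a widely used human cell line derived from a triple-negative breast tumour. They were chosen by name with earlier results of these data known, so their counts and medians beside all genes are a description and not a test. Of the 38, 37 had a probe set on the array that was paired with that gene alone, out of 18404 genes measured in all. FTH1, the ferritin heavy chain, was not analysed here. A gene with more than 1 probe set was represented by the brightest one over the 6 arrays. One group of 3 arrays held cultures grown in DMEM with 25 mM glucose, which the labels call glycolytic, and the other group of 3 held cultures grown in DMEM with 10 mM fructose, called non-glycolytic. All 6 cultures came from the same line, were adapted to their sugar for 25 days as separate batches, and gave total RNA at about 70% confluency and about 24 hours after a change of medium. The labels name no further treatment or genetic change. The kind of sugar and its concentration cannot be told apart in this design. The title of the series asks how restricted glycolysis affects gene expression, and the question here is how the antioxidant genes differed between the sugars.

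NRF2, encoded by NFE2L2, is a transcription factor that is held at a low level by KEAP1, which hands it to a ubiquitin ligase. When KEAP1 is modified by electrophiles or oxidants, NRF2 accumulates, pairs with a small MAF protein and binds antioxidant response elements near genes of glutathione synthesis, detoxification, NADPH supply and haem and iron handling. Much of this control acts on the NRF2 protein, which these arrays do not measure. Glutathione is a cysteine-containing tripeptide that peroxidases use to remove peroxides and transferases use to tag reactive compounds for export. Ferritin stores iron in a form that does not react with peroxides, and its synthesis also depends on translational control by iron regulatory proteins.

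The core of an antioxidant response element was searched as TGACNNNGC, where N is any base, on both strands of the 250 bases before the start of each gene, because this is the sequence that binds NRF2 with its MAF partner. The windows came from RefSeq (GRCh38.p14) and were matched for 30 of the 38 genes. The core was found in 7 of these 30 genes (23.3%) and in 13.2% of the 27305 genes with a window. It overlaps the AP-1 site TGACTCA where its open bases allow it, as in GSTP1. The matches are shown in capitals below, 5′ to 3′ on the strand of the gene, and a match of letters is a description and not a binding site.
KEAP1: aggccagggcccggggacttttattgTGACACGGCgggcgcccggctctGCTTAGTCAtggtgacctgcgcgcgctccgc
GCLM: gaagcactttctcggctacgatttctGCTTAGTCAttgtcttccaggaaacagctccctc
GPX2: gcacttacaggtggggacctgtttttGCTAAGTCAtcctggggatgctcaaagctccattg
GSTP1: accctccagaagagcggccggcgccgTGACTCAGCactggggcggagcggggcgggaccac
GSTO1: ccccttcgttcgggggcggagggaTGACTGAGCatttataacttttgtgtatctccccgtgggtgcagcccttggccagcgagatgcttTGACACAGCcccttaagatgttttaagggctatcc
EPHX1: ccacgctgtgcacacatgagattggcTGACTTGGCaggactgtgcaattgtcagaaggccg
GSTA4: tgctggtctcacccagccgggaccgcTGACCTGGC
The KEAP1 stretch lies at chr19:10502772-10502851 on the minus strand and holds 2 matches, which begin 54 and 31 bases before the start, the second on the other strand. GSTO1 also holds 2 (chr10:104254642-104254765, plus strand), while GCLM (chr1:93909431-93909490, minus), GPX2 (chr14:64942833-64942893, minus), GSTP1 (chr11:67583720-67583780, plus), EPHX1 (chr1:225825250-225825310, plus) and GSTA4 (chr6:52995285-52995319, minus) hold 1 each. In GCLM and GPX2 the core reads on the other strand.

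Most of these antioxidant genes stood slightly higher in fructose, by amounts that no single gene carried past the test over the whole array. Of the 37 measured genes 30 were higher in fructose (81.1%, beside 56.5% of all genes) and 7 lower, with a median log2 difference (fructose minus glucose) of 0.13, beside 0.02 over the 18404 genes. The differences ran from -0.53 for GSTA4 to 0.54 for AKR1C3. With limma and Benjamini-Hochberg adjustment over 28230 probe sets, 0 of the 37 passed an adjusted p of 0.05. Their adjusted p ran from 0.14 to 0.99. In that fit 1 probe set passed (0.00354% of those tested), that of TXNIP, the thioredoxin-interacting protein, with -3.80. At an unadjusted p under 0.05, 12 genes were higher in fructose and 1 was lower, where 8.53% of all genes were higher and 5.74% lower by the same measure. The arrays of the sugars did not overlap for 14 genes that were higher and 1 that was lower, beside 13.0% and 10.0% of all genes. Among the 11059 genes brighter than the median probe set, where 32 of the 37 lie, 16.6% were higher and 14.1% lower without overlap, and 10.6% were higher and 7.77% lower at an unadjusted p under 0.05.

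**Figure D1:**
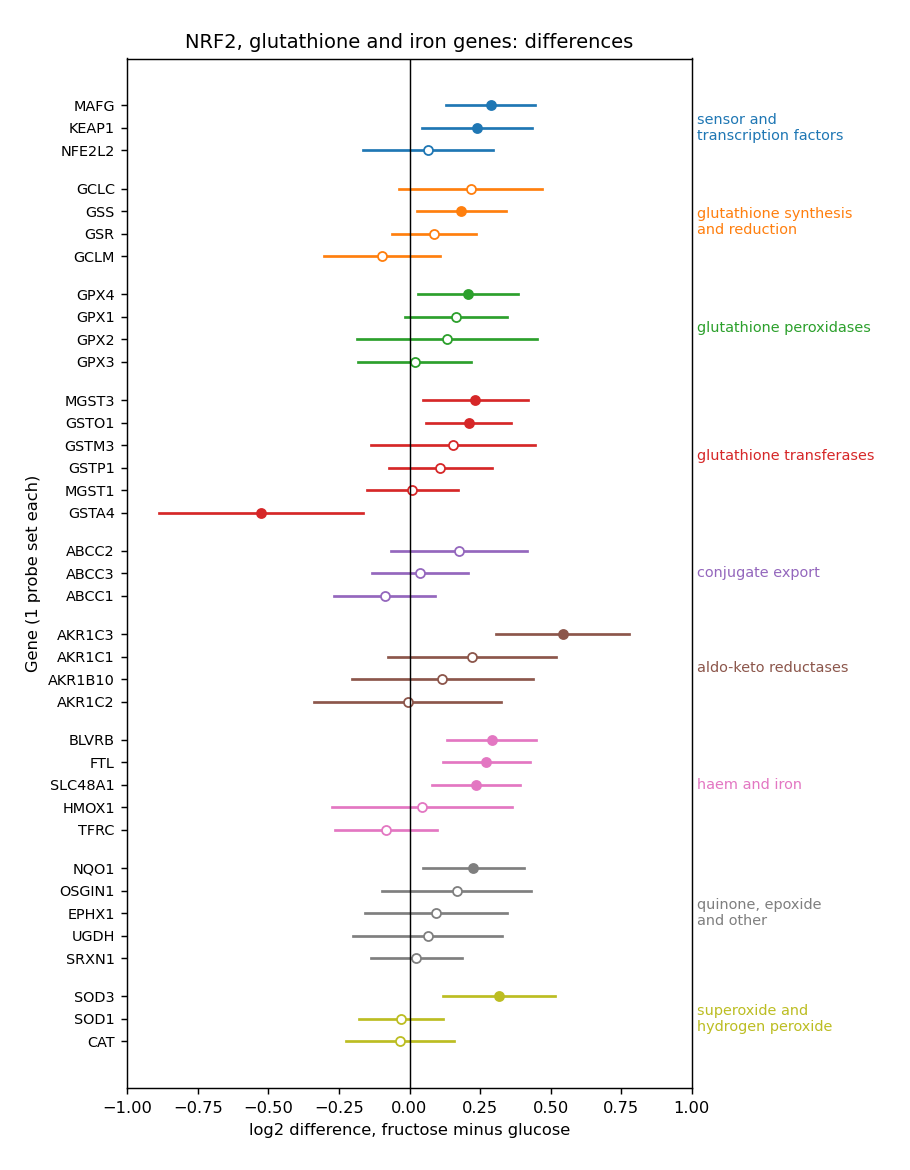
Log2 difference between fructose and glucose (x axis) for each of the 37 measured genes (y axis), grouped by role. Points are limma estimates from 3 arrays per sugar, bars are 95% intervals and filled points have an unadjusted p under 0.05. The intervals of 12 genes lie above 0 and that of GSTA4 lies below.

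The number of genes called depended on how the variance was modelled. Probe sets in the dimmer part of the array varied more, with a median residual SD of 0.149 on the log2 scale against 0.0938 in the brighter part. When the fit let the variance follow the intensity, with robust variances, 473 probe sets passed (1.68%), 258 higher in fructose and 215 lower. Among them were 5 of the 37 genes, FTL (adjusted p = 0.015), AKR1C3 (0.024), MAFG (0.032), BLVRB (0.034) and GSTO1 (0.036), all higher in fructose. When bright probe sets alone were tested, 325 passed (2.30%), with AKR1C3 (0.038) and BLVRB (0.04996) among them. The calls varied with the arrays that were used. In the fit with the intensity trend none of the 37 passed without glucose replicate 1, glucose replicate 2 or fructose replicate 1, FTL alone passed without glucose replicate 3, 3 passed without fructose replicate 3 and 4 without fructose replicate 2. In the default fit the 12 genes higher at an unadjusted p under 0.05 became 7 without glucose replicate 1, where the share of all genes that were higher was 6.33%. They also became 7 when each array was centred on its median, where 5.71% of all genes were higher. Centring turned the share of higher genes among all those at that p from 59.8% to 47.6%. Quantile normalization again gave 13 of the 37 higher at that p, where 7.71% of all genes were higher.

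**Figure D2:**
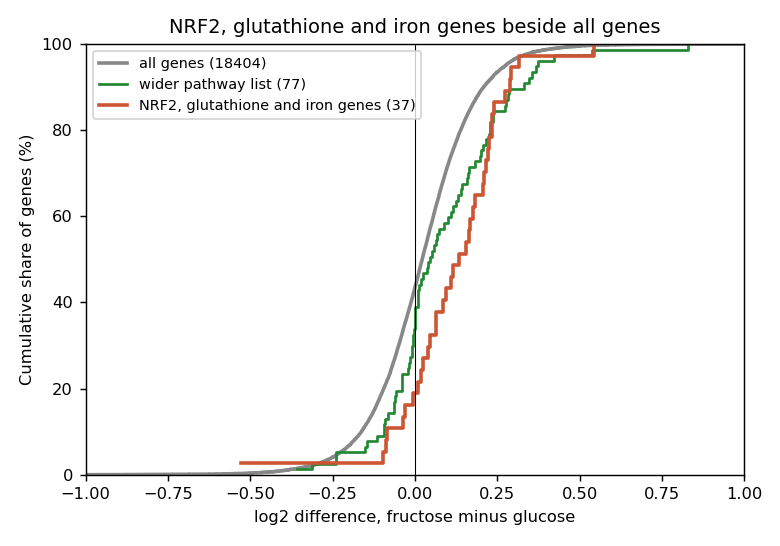
Cumulative share of genes (y axis, %) by log2 difference between fructose and glucose (x axis) for all 18404 genes, for 77 further genes of the same pathways and for the 37 antioxidant genes. The curve of the 37 genes is shifted to the right, with a median of 0.13 against 0.02 for all genes and 0.05 for the further genes.

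Of the sensor and its transcription factors, KEAP1 and MAFG were higher in fructose at an unadjusted p under 0.05 and NFE2L2 was not, and the genes were not tested against each other. NFE2L2 had log2 intensities of 8.80, 8.94 and 8.73 in glucose and 9.06, 8.79 and 8.82 in fructose (replicates 1 to 3). The arrays overlapped, and the difference was 0.07 (95% interval -0.17 to 0.30). KEAP1, the adaptor that targets NRF2 for degradation, had 6.71, 6.78 and 6.72 in glucose and 6.93, 7.12 and 6.89 in fructose. All fructose arrays lay above all glucose arrays, by 0.24 on average (SE 0.08, limma adjusted p = 0.30). MAFG, a small MAF protein that pairs with NRF2, had 8.38, 8.38 and 8.49 in glucose and 8.70, 8.68 and 8.73 in fructose. Its difference was 0.29 (SE 0.07, limma adjusted p = 0.19), and the 3 fructose arrays lay close together. The other 2 MAFG probe sets, both dimmer, differed by 0.25 and 0.21.

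In glutathione synthesis and reduction 3 of the 4 genes were higher in fructose and 1 lower, with a median of 0.14, and none passed (limma adjusted p 0.33 to 0.69). GCLC, the catalytic subunit of the rate-limiting ligase, had 7.13, 7.24 and 7.30 in glucose and 7.64, 7.27 and 7.40 in fructose. Fructose replicate 1 stood out as the highest and replicate 2 lay within the glucose range, so that the difference of 0.22 had an interval from -0.04 to 0.47. GCLM, the modifier subunit of the same ligase and a common NRF2 target, had 7.06, 7.09 and 7.32 in glucose and 7.10, 7.02 and 7.05 in fructose. It differed by -0.10 (95% interval -0.30 to 0.11). GSS, which adds glycine in the last step, had 8.80, 8.78 and 8.89 in glucose and 9.03, 9.03 and 8.97 in fructose. It was higher by 0.18 (SE 0.07, limma adjusted p = 0.33) without overlap. GSR, which regenerates reduced glutathione with NADPH, had 8.43, 8.47 and 8.48 in glucose and 8.54, 8.52 and 8.58 in fructose. Its arrays did not overlap either, but the difference was 0.09 with an interval from -0.06 to 0.23.

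The glutathione peroxidases were all on the fructose side of 0, with a median of 0.15. GPX4, which reduces lipid hydroperoxides in membranes and protects against ferroptosis, had 9.77, 9.97 and 9.92 in glucose and 10.11, 10.11 and 10.07 in fructose. It was higher by 0.21 (SE 0.08, limma adjusted p = 0.32), with no overlap. GPX1, the main peroxidase of the cytosol, had 10.69, 10.64 and 10.81 in glucose and 10.86, 10.95 and 10.81 in fructose. Its groups parted by a narrow margin and the difference was 0.16 (95% interval -0.02 to 0.34). A dimmer GPX1 probe set differed by 0.02. GPX3, the secreted form, differed by 0.02 and GPX2, a form of gut epithelium that was dim here, by 0.13, both with overlapping arrays.

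Among the 6 glutathione transferases, 2 were higher at an unadjusted p under 0.05 and 1 was lower. By the same measure 8.53% of all genes were higher and 5.74% lower. Among genes brighter than the median probe set, where all 6 lie, the shares were 10.6% and 7.77%. GSTO1, an omega-class enzyme that reduces dehydroascorbate, had 9.83, 9.86 and 9.83 in glucose and 10.10, 10.02 and 10.03 in fructose. The difference of 0.21 (SE 0.06) had a limma adjusted p of 0.26. MGST3, a membrane-bound enzyme with peroxidase activity, had 10.61, 10.72 and 10.73 in glucose and 10.96, 11.00 and 10.81 in fructose, and was higher by 0.23 (SE 0.08, limma adjusted p = 0.30). In neither gene did the sugars overlap. GSTA4, which conjugates the lipid peroxidation product hydroxynonenal, was the one gene of the 37 that was lower in fructose without overlap. It had 5.69, 5.84 and 5.51 in glucose and 5.27, 5.35 and 4.83 in fructose, with the lowest value on fructose replicate 3. The difference was -0.53 (SE 0.15, 95% interval -0.89 to -0.17, limma adjusted p = 0.24), a 1.44-fold higher level in glucose. The other 3 overlapped between the sugars. GSTM3 differed by 0.15, GSTP1, the most studied form in tumours, by 0.11 and MGST1 by 0.01. The 3 exporters of glutathione conjugates also overlapped, with ABCC1 at -0.09, ABCC2 at 0.18 and ABCC3 at 0.04, and ABCC2 and ABCC3 were dimmer than the median probe set. Of the 7 genes with the response element core shown above, KEAP1 and GSTO1 were higher at an unadjusted p under 0.05 and GSTA4 was lower. GCLM, GPX2, GSTP1 and EPHX1 were neither, and their arrays overlapped between the sugars. By that p 12 of the 37 genes were higher and 1 lower, beside 8.53% and 5.74% of all genes. A link between the core and the differences was not tested.

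The aldo-keto reductases held the largest upward difference. AKR1C3, which reduces steroids and prostaglandins, had 6.72, 6.76 and 6.85 in glucose and 7.22, 7.52 and 7.22 in fructose. Every fructose array lay well above every glucose array, and the highest was replicate 2. The difference was 0.54 (SE 0.10, 95% interval 0.31 to 0.78, unadjusted p = 9.2e-04, limma adjusted p = 0.14), or 1.46-fold. AKR1C1, which reduces progesterone, had 5.98, 6.13 and 6.01 in glucose and 6.51, 6.02 and 6.26 in fructose. Here fructose replicate 2 was the lowest of its group and lay within the glucose range, so the difference of 0.22 had an interval from -0.08 to 0.52. Its dimmer second probe set differed by 0.39. AKR1C2, which inactivates dihydrotestosterone, was dim, with 3.99, 4.17 and 4.08 in glucose and 3.75, 4.21 and 4.25 in fructose. It differed by -0.01 (95% interval -0.34 to 0.32). AKR1B10, a retinal reductase, was dim on every array (2.01 to 2.54) and differed by 0.12. Whether AKR1C3 differed from its relatives was not tested. The AKR1C genes are close paralogs, and the probe sequences were not used here, so signal shared between them cannot be told apart.

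The 100 bases before the starts of these 3 neighbouring genes are shown so that the paralog with the largest difference can be set beside its relatives. Capitals mark the longest stretch found in all of them, of 12 bases.
AKR1C1: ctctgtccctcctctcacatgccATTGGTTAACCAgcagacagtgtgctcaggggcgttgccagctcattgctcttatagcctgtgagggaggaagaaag
AKR1C2: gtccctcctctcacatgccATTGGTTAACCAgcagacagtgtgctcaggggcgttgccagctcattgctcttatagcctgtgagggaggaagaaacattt
AKR1C3, upstream start: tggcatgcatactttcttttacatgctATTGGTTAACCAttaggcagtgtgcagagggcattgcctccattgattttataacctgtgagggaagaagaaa
AKR1C3, downstream start: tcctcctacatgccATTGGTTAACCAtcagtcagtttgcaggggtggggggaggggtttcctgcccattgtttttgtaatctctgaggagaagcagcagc
They lie at chr10:4963315-4963414 (plus strand), chr10:5003858-5003957 (minus), chr10:5048681-5048780 (plus) and chr10:5094314-5094413 (plus) of GRCh38.p14. Over 250 bases before the start, AKR1C1 and AKR1C2 were identical at 98% of positions in a global alignment, and the 2 AKR1C3 windows matched AKR1C1 at 74% and 73.6%. None held the response element core.

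In haem and iron handling 3 of the 5 measured genes were higher at an unadjusted p under 0.05. The share was 8.53% over all genes and 10.6% over those brighter than the median probe set, where all 5 lie. The median of the 5 was 0.24. FTL, the ferritin light chain, had 10.65, 10.68 and 10.69 in glucose and 10.99, 10.88 and 10.97 in fructose. The groups were well apart, with a difference of 0.27 (SE 0.07, limma adjusted p = 0.20). Ferritin has many processed pseudogenes, so signal from related sequences cannot be told apart in FTL. BLVRB, which reduces biliverdin and flavins with NADPH, had 8.07, 7.96 and 8.08 in glucose and 8.33, 8.32 and 8.33 in fructose, higher by 0.29 (SE 0.07, limma adjusted p = 0.19). SLC48A1, a transporter that moves haem out of endosomes and lysosomes, had 6.15, 6.27 and 6.19 in glucose and 6.41, 6.45 and 6.45 in fructose, higher by 0.24 (SE 0.07, limma adjusted p = 0.24). Both had fructose arrays within a narrow band above glucose. HMOX1, which opens the haem ring and is among the most inducible NRF2 targets, had 7.67, 7.90 and 7.52 in glucose and 7.95, 7.54 and 7.74 in fructose. Its arrays were interleaved, with a difference of 0.04 (95% interval -0.28 to 0.36). TFRC, the transferrin receptor that brings iron into the cell, had 9.84, 9.73 and 9.84 in glucose and 9.70, 9.82 and 9.64 in fructose. It differed by -0.08 (95% interval -0.27 to 0.10), the opposite sign to FTL, and the arrays overlapped.

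**Figure D3:**
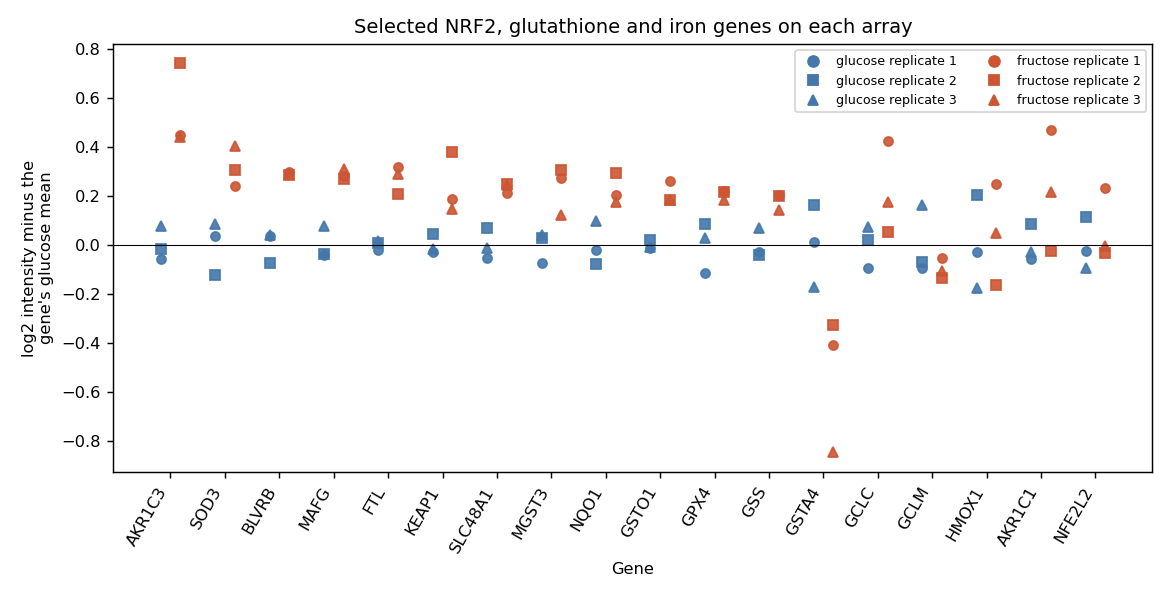
Log2 intensity of 18 genes on each of the 6 arrays, shown as the difference from the mean of the glucose arrays (y axis), with genes on the x axis. Colours mark the sugar and marker shapes the replicate. In the 13 genes at the left the sugars do not overlap, and in the 5 at the right they do. Of these, GCLC, HMOX1, AKR1C1 and NFE2L2 are highest on fructose replicate 1.

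NQO1, a quinone reductase that is widely used as a readout of NRF2, had 9.21, 9.15 and 9.32 in glucose and 9.43, 9.52 and 9.40 in fructose. The sugars did not overlap, and the difference was 0.23 (SE 0.08, limma adjusted p = 0.30). The other 4 genes of this group overlapped. OSGIN1, an oxidative stress-induced growth inhibitor, differed by 0.17, EPHX1, an epoxide hydrolase, by 0.09, UGDH, which makes UDP-glucuronate, by 0.06 and SRXN1, which repairs overoxidised peroxiredoxins, by 0.02 (95% interval -0.14 to 0.19). Of the genes that remove superoxide and hydrogen peroxide, SOD3, the extracellular dismutase, had 5.05, 4.90 and 5.11 in glucose and 5.26, 5.32 and 5.42 in fructose. It was higher by 0.32 (SE 0.08, limma adjusted p = 0.23) without overlap. The dismutase of the cytosol, SOD1, differed by -0.03 (95% interval -0.18 to 0.12) and catalase, CAT, by -0.04 (95% interval -0.23 to 0.16).

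The 3 fructose cultures differed among themselves. Relative to each gene's mean in glucose, the 37 genes had a median of 0.19, 0.12 and 0.12 on replicates 1, 2 and 3 of fructose, and between -0.03 and 0.02 on the glucose arrays. Fructose replicate 1 held the highest of the 3 fructose values for 16 genes and replicate 2 for another 16, while replicate 3 did so for 5, where the shares over all genes were 36.5%, 33.0% and 30.5%. The lowest fructose value lay on replicate 1 for 5 genes and on replicates 2 and 3 for 16 each, beside 25.6%, 37.2% and 37.2% of all genes. Of the possible orders 2 held 13 genes each, a count made after the values were seen. Highest on replicate 1 and lowest on replicate 2 were NFE2L2, GCLC, GCLM, GPX2, GSTO1, AKR1C1, HMOX1, BLVRB, FTL, UGDH, SRXN1, OSGIN1 and SOD1, an order that 19.2% of all genes had. Highest on replicate 2 and lowest on replicate 3 were KEAP1, GPX1, GPX3, GSTP1, GSTM3, GSTA4, MGST1, MGST3, ABCC1, AKR1C3, TFRC, NQO1 and EPHX1, as were 20.0% of all genes. The remaining 11 genes had other orders. Aldo-keto reductases had medians of 0.40, 0.11 and 0.19 on the fructose arrays, and glutathione transferases had 0.13, 0.20 and -0.0019. Haem and iron genes were more even, with 0.25, 0.21 and 0.25.

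**Figure D4:**
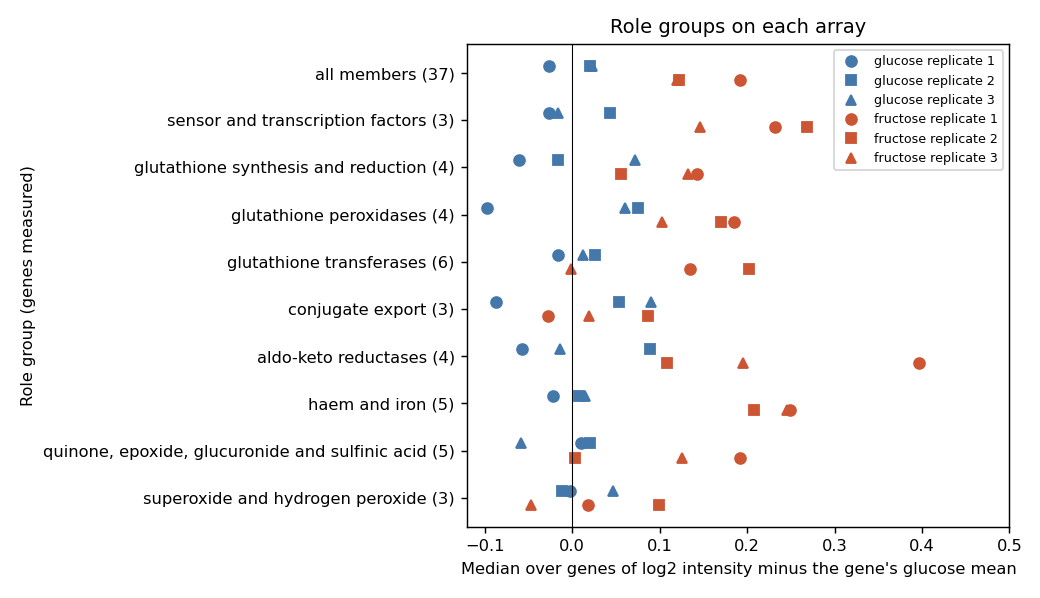
Median over the genes of each role group of the log2 intensity minus the gene's glucose mean (x axis), for each array, with role groups and their numbers of genes on the y axis. For haem and iron genes the fructose arrays lie between 0.21 and 0.25, above the glucose arrays. The sugars overlap for glutathione synthesis and reduction, glutathione transferases, conjugate export, the quinone and epoxide group, and superoxide and hydrogen peroxide.

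Genes around the same pathways, 77 measured of 87 listed, had a median of 0.05, with 0 past the limma threshold. At an unadjusted p under 0.05, 17 were higher and 3 lower, where 8.53% of all genes were higher and 5.74% lower. Among genes brighter than the median probe set, where 67 of the 77 lie, the shares were 10.6% and 7.77%. Among partners and regulators of NRF2, 3 of 7 were higher at that p. SQSTM1, which traps KEAP1 for autophagy, had 7.70, 7.74 and 7.78 in glucose and 8.41, 8.15 and 8.29 in fructose, a difference of 0.54 (SE 0.08, limma adjusted p = 0.14). BTRC, a further ubiquitin ligase adaptor for NRF2, differed by 0.21 and MAFF by 0.18. Of 19 further NRF2 targets 5 were higher and none lower. Those named by the smallest p were TKT (0.27), TALDO1 (0.37) and PGD (0.20), of the pentose phosphate pathway that supplies NADPH, and the aldehyde dehydrogenase ALDH3A2 (0.23). Their list had a median of 0.04.

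At the same unadjusted p, further glutathione genes had 7 higher and 2 lower of 22, beside 8.53% of all genes higher and 5.74% lower. CHAC1, which degrades glutathione, had 6.17, 6.03 and 6.25 in glucose and 7.05, 6.61 and 7.26 in fructose, higher by 0.83 (SE 0.16, limma adjusted p = 0.16). The transferases GSTK1 (0.36) and GSTZ1 (0.33) were also higher without overlap, while the transferase MGST2 (-0.24) was lower without overlap. GLO1, the glyoxalase that uses glutathione to detoxify the glycolytic by-product methylglyoxal, stood lower. It had 9.85, 9.92 and 9.86 in glucose and 9.52, 9.58 and 9.46 in fructose, a difference of -0.36 (SE 0.07, limma adjusted p = 0.15). Further iron and haem genes had 1 higher and 1 lower of 21 beside the same shares of all genes, with a median of 0.01. STEAP3, an endosomal ferrireductase, was higher by 0.42 (SE 0.08). BLVRA, the other biliverdin reductase, had 8.53, 8.55 and 8.66 in glucose and 8.34, 8.35 and 8.34 in fructose, lower by 0.24 where BLVRB was higher by 0.29, with no overlap in either gene. Of 8 further superoxide and peroxide genes the peroxiredoxin PRDX2 was higher, by 0.28. In the fit with the intensity trend SQSTM1 and GLO1 (adjusted p = 0.012 each), TKT (0.025), STEAP3 (0.032), CHAC1 (0.034) and TALDO1 (0.037) passed. Of all probe sets 1.68% passed in that fit. These genes were named by their p on the same arrays, so this is a description and no separate support.

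Array intensities over the whole table ran from 2.15 to 9287, and array medians from 33.1 to 34.8. Pairs of arrays differed with an SD of 0.225 to 0.273 (log2), so none was a copy of another. Precision is limited by the number of arrays, and the median SE of the 37 differences was 0.081. Of 5 mesenchymal markers of this line 4 were brighter than the median probe set, with VIM at a mean of 11.5 in glucose. TGFBI (4.74) was not. Of 5 luminal markers 1 was brighter than the median probe set, GATA3 (6.38), while others such as ESR1 (4.02) and CDH1 (3.09) were dim. At an unadjusted p under 0.05, 0 of 5 mesenchymal, 0 of 5 luminal and 0 of 5 fibroblast markers differed. Among leukocyte markers 1 of 4 did (LYZ, -0.30 from a dim 4.72). By that measure 8.53% of all genes were higher and 5.74% lower. LYZ and 2 fibroblast markers (COL1A1, -0.15, and PDGFRB, -0.12) were lower in fructose without overlap, beside 10.0% of all genes. The part of these markers in the results was not tested.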

How the data were processed

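The deposited table gives 1 intensity per probe set and array, made by the authors with RMA according to the submitters' processing notes. This method corrects background, normalizes between arrays and summarises probes, and it tends to compress differences of dim probe sets. For its version, program and genome build, the sources used here give nothing. The intensities reach 9287, so they were read as linear and log2 was taken, with no pseudocount. Of 32321 rows, 4091 with identifiers below the lowest one paired with a gene were taken as controls and left out, leaving 28230. The platform annotation paired 19158 of them with 1 gene, 1388 with several and left 7684 unnamed. Gene numbers of 18376 of the 18404 genes matched RefSeq, and 0 symbols needed an update.

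Fructose was compared with glucose in limma 3.58.1 under R 4.3.3 (lmFit, then eBayes at its defaults, with sugar as the only term and two-sided p-values adjusted by Benjamini-Hochberg over 28230 probe sets). The genes and lists were chosen with earlier results of these data known. They were described by role, with values on every array for 13 genes fixed by name (FTH1 unmeasured) and for those with an unadjusted p under 0.05 or without overlap. From the further lists up to 4 genes each with the smallest p were named. Upstream sequences were aligned with Biopython 1.88. The test was checked on simulated data. Replicates are separately adapted batches, and same-numbered cultures are not stated to be paired.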

Additional observations from a re-analysis of the deposited data

How the results depend on the processing

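Of 15 alternatives, 5 change the error or the set of probe sets tested and leave the estimate of each gene they test as it was. Under the other 10, 29 of the 37 genes kept their direction, including the 13 with an unadjusted p under 0.05. The arrays of the sugars did not overlap in any of these 13, so leaving out an array could not change their sign. The other 8 of the 37 genes changed sign. GPX3 was -0.0079, MGST1 -0.016 and SRXN1 -0.0012 with arrays centred on their medians. With an array left out, ranges were -0.034 to 0.083 for GPX3, -0.013 to 0.048 for MGST1, -0.013 to 0.061 for SRXN1, -0.017 to 0.12 for NFE2L2, -0.097 to 0.15 for AKR1C2, -0.057 to 0.15 for HMOX1, -0.10 to 0.0071 for CAT and -0.0045 to 0.072 for ABCC3. The median over the genes was 0.096 to 0.19 with an array left out.

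In the default fit without 1 array, 1 probe set passed each time, 0 of the 37 genes passed, and 7 to 13 were higher and 1 lower at an unadjusted p under 0.05 (6.09% to 9.0% of all genes higher). With all arrays and an intensity trend, 473 probe sets and 5 genes passed, and 325 and 2 among bright probe sets alone, where 32 of the 37 could be tested. Leaving out an array in the fit with the trend was added after seeing the data. There the probe sets called were 17, 73 and 114 without glucose replicates 1, 2 and 3 and 31, 578 and 235 without fructose replicates 1, 2 and 3, with 0, 0, 1, 0, 4 and 3 genes among them. From 13 to 17 genes were higher and 1 to 2 lower at an unadjusted p under 0.05, where 7.03% to 9.70% of all genes were higher. An unmoderated test called 0 probe sets, with 3565 at an unadjusted p under 0.05. After centring, 7 genes were higher at that p, beside 5.71% of all genes. Quantile normalization again gave 13, beside 7.71%, array weights 13, beside 9.26%, and the unmoderated test 13, beside 8.52%. Averaging the probe sets of a gene gave 13, but the share of all genes was not counted there, so that count has nothing to be read against. The replicate block called 1 probe set and left 9 genes higher at that p, beside 6.54% of all genes. The numbers were not taken as pairs in the main fit because no pairing is stated. Same-numbered cultures correlated between -0.05 and -0.02 in their deviations from the group means, and differently numbered ones between -0.04 and 0.06.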

Other observations

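Genes of cystine uptake and thioredoxin reduction, chosen after their values were seen, were uneven over the fructose cultures. SLC7A11, the cystine transporter, had 9.46 and 9.44 on fructose replicates 1 and 3 but 8.85 on replicate 2, below the 3 glucose arrays (9.08, 9.10 and 9.07). Its partner SLC3A2 had 9.79 and 9.77 on replicates 1 and 3 and 9.45 on replicate 2. TXNRD1, which reduces thioredoxin and is a common NRF2 target, had 10.39, 10.19 and 10.50, with replicate 2 again at the level of glucose (10.23, 10.19 and 10.23). The mu-class transferases lay the other way, with GSTM4 at 7.68, 8.06 and 7.50 and GSTM1 at 7.51, 7.88 and 7.43 in fructose, so that replicate 2 was the highest for both. GSTM1 in glucose had 7.53, 7.44 and 7.44. These mu-class genes are close paralogs, and signal shared between them cannot be told apart.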
